A study of Homo sapiens with 12 samples.

Results

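Non-canonical NF-κB signalling is the slower arm of the NF-κB system and the one that TWEAK, the ligand of the receptor Fn14, is best known to engage. Here, its transcripts were followed over all libraries of the series. NFKB2 and RELB encode the p100/p52 and RelB subunits, MAP3K14 encodes the kinase NIK, and CHUK encodes the kinase IKKα. TRAF2, TRAF3, BIRC2 and BIRC3 encode the adaptors and ubiquitin ligases that hold NIK down. TRAF1 encodes a family member that binds TRAF2, and OTUD7B encodes a deubiquitinase of TRAF3. These 10 genes were taken by name from the 62696 of each count table, and each symbol matched 1 Ensembl identifier. The study asked how breast cancer lines of different subtypes respond to TWEAK, and this series holds its HER2 lines, SKBR3 and MDA-MB-453, both established human breast cancer lines. Each line was sequenced by poly-A RNA-seq as 3 untreated (UT) and 3 TWEAK-treated replicates, 12 libraries in all, which the methods call biological replicates. Per the labels, cells of both groups share a description in which Opti-MEM starvation of 8 h precedes 48 h with 10 ng/ml TWEAK, renewed at 24 h. How the untreated cells were handled during that time is not said. Each line is a single culture model, so that line and anything done separately per line cannot be told apart.

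In resting cells, TRAF3 docks newly made NIK onto TRAF2 and the cellular inhibitors of apoptosis cIAP1 (BIRC2) and cIAP2 (BIRC3), which ubiquitinate it, and NIK is destroyed as fast as it is made. When a receptor such as Fn14, CD40 or the lymphotoxin-β receptor recruits that complex, NIK accumulates, activates IKKα, and IKKα marks p100 for processing by the proteasome to p52, which enters the nucleus with RelB. These steps are set by protein stability, which RNA-seq does not measure, whereas several of the genes are themselves transcribed under NF-κB.

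The SKBR3 libraries held 24842722 to 28647209 counts and the MDA-MB-453 libraries 24773003 to 35208304. Treated replicate 2 of SKBR3 was unlike its fellows over all genes, with a chi-square per degree of freedom against them of 21.1 and 23.8. In MDA-MB-453, treated replicate 2 gave 10.2 against replicate 1 and 5.31 against replicate 3, where all pairs without either of these libraries gave 1.78 to 5.74. The tests were also run without each of them. The epithelial markers EPCAM, KRT8, KRT18, KRT19, ERBB2 and GRB7 were present in every library, whereas CDH1 held no more than 7 counts in any SKBR3 library. ERBB2 reached 7408 to 7907 CPM, the count scaled to library size, in SKBR3 and 847 to 902 CPM in the other line. The summed level of 5 leukocyte markers stayed at or under 1.48 CPM. That of 5 fibroblast markers was 17.6 to 21.0 CPM in SKBR3, and in MDA-MB-453 it was 116 to 123 CPM untreated and 107 to 113 CPM treated, nearly all of it COL1A1, with COL3A1 and DCN at 0 to 2 counts. The 3 endothelial markers summed to 3.89 to 5.10 CPM in untreated and 6.43 to 7.72 CPM in treated SKBR3. Of these, CDH5 held 1.57 to 1.90 CPM untreated and 3.56 to 5.05 CPM treated. VWF held 2.28 to 3.20 CPM untreated and 2.61 to 2.79 CPM treated, while PECAM1 held at most 2 counts. In MDA-MB-453 the endothelial sum stayed at or under 0.560 CPM. The part of these shifts in the results that follow was not tested.

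Of the 10 genes, 9 had a promoter window in RefSeq (GRCh38.p14), which was read over the 250 bases before the annotated start, and RELB had none. Only the first listed window of a gene was read, so other starts of the same gene were not searched. That of TRAF2 (chromosome 9, 136886266 to 136886515) lies within the span of the gene, 136881912 to 136926607. Both strands were searched with the consensus decamer of NF-κB (GGG, a purine, any base, A or T, a pair of pyrimidines, CC), and matches may overlap. It occurred in 2 of the 9 windows, those of TRAF3 and BIRC3, and in 5.21% of 35116 human promoter windows of that length. BIRC3 held a pair of matches, GGGGATTTCC at 199 to 190 bases and GGGGAACTCC at 135 to 126 bases before the start, both on the opposite strand, and TRAF3 held GGGGATTTCC on its own strand at 33 to 24 bases. The 4 windows shown are those of the 2 genes with a match, of BIRC2 as the paralog and neighbour of BIRC3, and of NFKB2, which rose in both lines and holds no match to the consensus in this window. They are written 5′ to 3′ along each gene, with the matches in capitals.
BIRC3, chromosome 11 from 102317234 to 102317483, plus strand: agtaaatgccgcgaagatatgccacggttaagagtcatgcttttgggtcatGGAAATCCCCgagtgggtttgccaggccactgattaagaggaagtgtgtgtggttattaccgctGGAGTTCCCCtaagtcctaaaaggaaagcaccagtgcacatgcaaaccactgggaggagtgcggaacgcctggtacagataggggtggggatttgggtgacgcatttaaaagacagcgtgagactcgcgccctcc
BIRC2, chromosome 11 from 102346964 to 102347213, plus strand: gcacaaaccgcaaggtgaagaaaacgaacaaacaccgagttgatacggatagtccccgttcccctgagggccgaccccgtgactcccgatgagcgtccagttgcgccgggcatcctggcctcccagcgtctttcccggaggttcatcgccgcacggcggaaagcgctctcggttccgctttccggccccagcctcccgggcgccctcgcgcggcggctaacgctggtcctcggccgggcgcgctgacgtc
TRAF3, chromosome 14 from 102777199 to 102777448, plus strand: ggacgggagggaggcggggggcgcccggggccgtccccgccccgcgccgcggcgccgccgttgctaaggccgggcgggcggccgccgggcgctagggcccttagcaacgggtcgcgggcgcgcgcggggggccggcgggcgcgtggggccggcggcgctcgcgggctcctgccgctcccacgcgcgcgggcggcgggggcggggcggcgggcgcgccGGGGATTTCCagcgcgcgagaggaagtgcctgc
NFKB2, chromosome 10 from 102393860 to 102394109, plus strand: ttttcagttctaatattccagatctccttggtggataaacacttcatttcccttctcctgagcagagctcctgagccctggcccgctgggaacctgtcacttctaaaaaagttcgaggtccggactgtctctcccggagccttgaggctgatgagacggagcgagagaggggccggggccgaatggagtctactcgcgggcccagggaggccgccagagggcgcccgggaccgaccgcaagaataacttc
A looser pattern, GGG and CC with any 5 bases between them, stood in 8 of the 9 windows, all but that of TRAF1, and in 54.4% of all promoter windows. In NFKB2 it was GGGACCGACC, 24 to 15 bases before the start. A match says only that these letters stand there, and its absence only that they do not. MAP3K14, with a window of 73.6% GC, and TRAF1, with 70.0%, were like NFKB2 without a match to the consensus.

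With TWEAK, 7 of the 10 genes were higher in SKBR3, 5 were higher in MDA-MB-453 and 0 were lower in either, at the study's threshold of a Benjamini-Hochberg adjusted p of 0.1 in edgeR's quasi-likelihood test. At an unadjusted p under 0.05, or with DESeq2, the number lower was 0 as well. NFKB2, RELB, MAP3K14, TRAF3 and BIRC3 passed in both lines, and TRAF1 and TRAF2 passed in SKBR3, where TRAF1 had entered the fit only through its treated counts. Under a filter of at least 10 counts in every library, which leaves TRAF1 out, 6 genes passed there. Among all 15661 genes tested in SKBR3, 6.60% were higher and 3.82% lower, and among the 14929 tested in MDA-MB-453, 1.29% were higher and 0.208% lower. These shares depend on TWEAK replicate 2 of each line. Without it, 1589 genes were higher and 1191 lower of 15996 in SKBR3 (1034 and 599 with it), and 1003 were higher and 1098 lower of 15216 in MDA-MB-453 (192 and 31 with it), beside 8 and 6 of the 10 genes, all higher. The replicates of the groups did not overlap for 8 of the 10 in SKBR3 and 6 of the 10 in the other line, against 26.5% and 15.1% of all genes in either direction. The median log2 fold change of the 10 was 1.14 (SKBR3) and 0.44 (MDA-MB-453), beside -0.007 and 0.002 over all genes tested. Since RNA was taken from whole cultures, more cells that express a gene and more RNA per cell cannot be told apart.

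**Figure D1:**
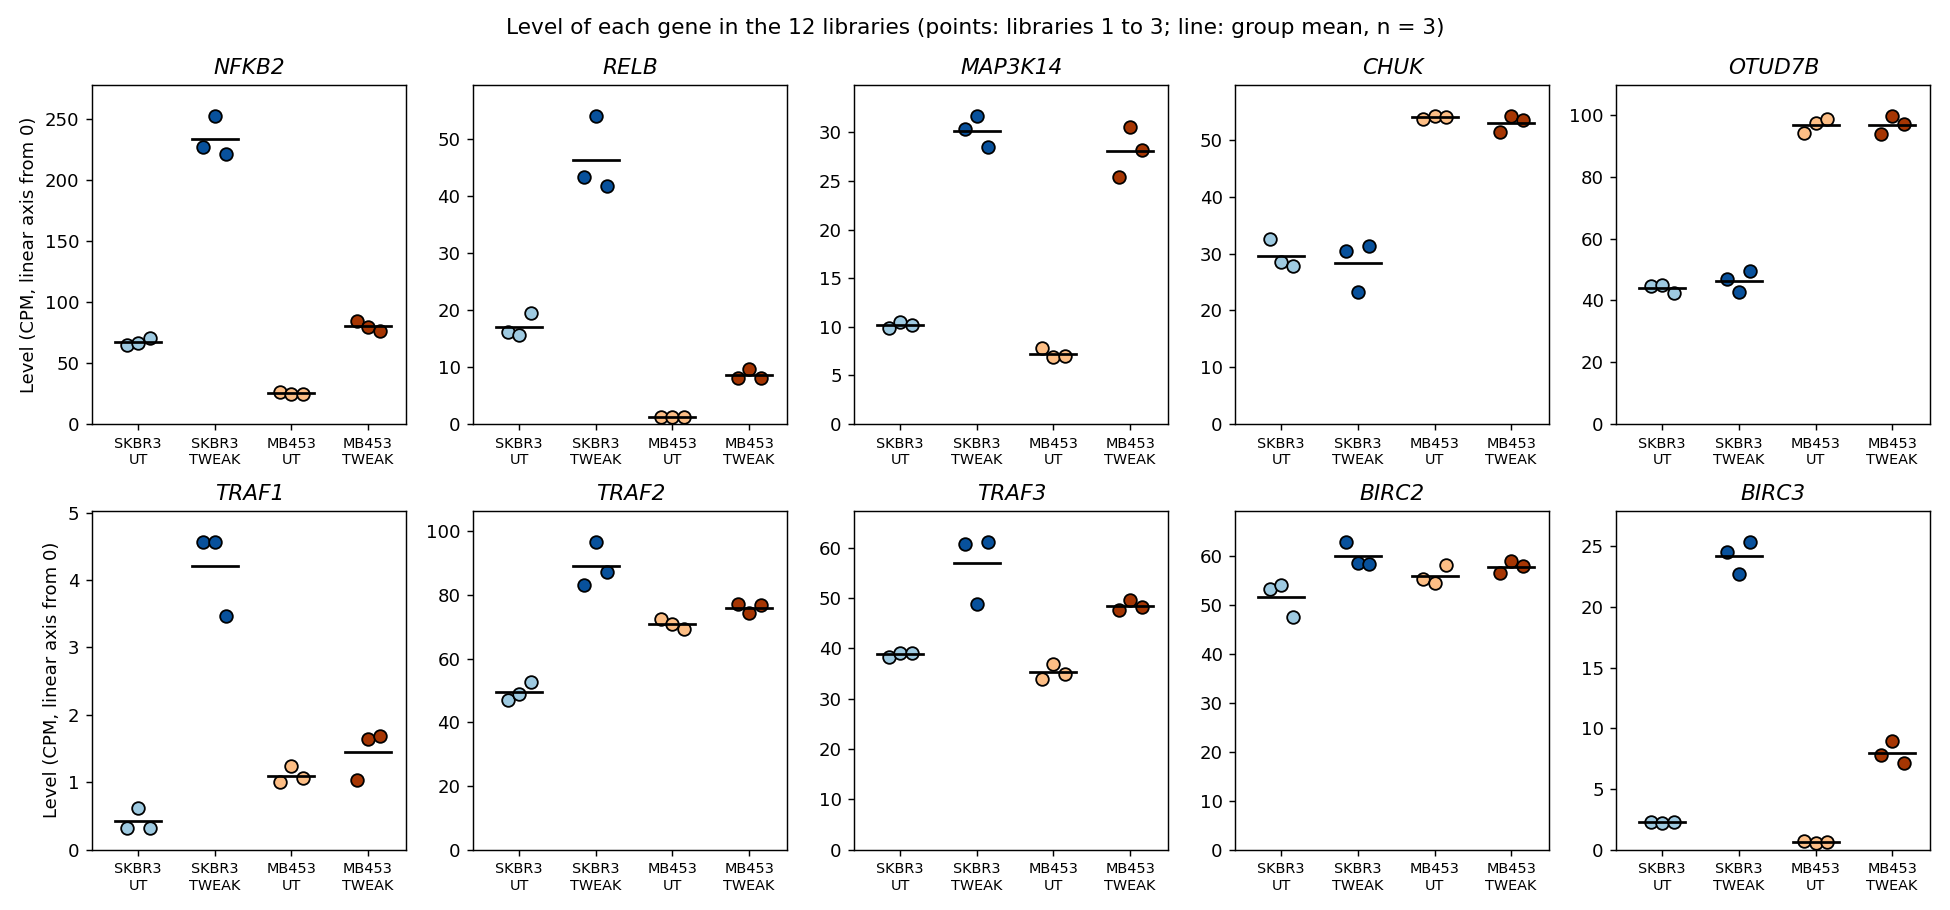
Level of each of the 10 genes in CPM (TMM-normalised over the 12 libraries, linear axes that start at 0 and differ between panels) in SKBR3 and MDA-MB-453 (MB453), untreated (UT) or treated with TWEAK. Points are libraries 1 to 3 from left to right and lines are group means (n = 3); NFKB2, RELB, MAP3K14, TRAF2, TRAF3 and BIRC3 separate the groups in both lines, TRAF1 and BIRC2 do so in SKBR3, whereas the untreated and treated points of CHUK and OTUD7B overlap.

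NFKB2 (chromosome 10 of hg38, 102394110 to 102402524) stood at 64.7, 66.8 and 70.5 CPM in untreated SKBR3 and at 227, 253 and 222 CPM with TWEAK. In MDA-MB-453 the untreated replicates held 26.1, 24.4 and 24.8 CPM and the treated ones 84.2, 79.9 and 76.3 CPM. All treated libraries of a line lay more than 3 times above the mean of its untreated ones, and treated MDA-MB-453 cells ended only a little above untreated SKBR3 cells. The log2 fold changes, 1.79 ± 0.072 (SE) and 1.67 ± 0.051, did not differ detectably between the lines (difference, MDA-MB-453 minus SKBR3, -0.12, 95% confidence interval -0.31 to 0.06, adjusted p = 0.701 in edgeR's interaction test).

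RELB (chromosome 19, 45001461 to 45038192) was far more unequal at the start. Untreated SKBR3 replicates held 16.1, 15.7 and 19.4 CPM, whereas those of MDA-MB-453 held 1.3, 1.2 and 1.29 CPM, which rest on only 33 to 35 counts per library. With TWEAK the values rose to 43.4, 54.1 and 41.7 CPM in SKBR3, and MDA-MB-453 reached 8.01, 9.59 and 8.02 CPM. No library of one group overlapped another group, and treated MDA-MB-453 cells stayed under untreated SKBR3 cells. RELB was thus 2.71-fold higher with TWEAK in SKBR3 and 6.72-fold higher in the other line, and the difference of the log2 fold changes was 1.30 ± 0.214 (SE; adjusted p = 0.00158, edgeR's interaction test). It lay between 1.21 and 1.44 over the alternatives tried, and was 1.44 without SKBR3 TWEAK replicate 2, the highest of its group for RELB.

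MAP3K14, the gene of NIK (chromosome 17, 45263119 to 45317029, minus strand), started low in both lines. SKBR3 replicates went from 9.85, 10.5 and 10.2 to 30.3, 31.7 and 28.5 CPM. MDA-MB-453 replicates went from 7.80, 6.93 and 7.01 to 25.4, 30.5 and 28.2 CPM. The groups were wide apart in each line, and the treated groups of the lines overlapped each other. On the log2 scale the change was 1.56 ± 0.079 in SKBR3 (SE; adjusted p = 4.81e-07 in edgeR) and 1.95 ± 0.081 in the other line (adjusted p = 7.71e-09). The difference between lines, 0.38 with a 95% confidence interval of 0.14 to 0.63, missed the threshold (adjusted p = 0.110, edgeR), and passed it without SKBR3 TWEAK replicate 2 (0.44, adjusted p = 0.0223), without MDA-MB-453 TWEAK replicate 1 (0.45, adjusted p = 0.0490) and in DESeq2 (0.39, adjusted p = 0.0934). The antisense gene MAP3K14-AS1 covers 15.1% of the exonic bases of MAP3K14, and whether reads were counted by strand is not stated. MAP3K14-AS1 itself held 28 to 79 counts in any library, with log2 fold changes of 0.28 and -0.24 that did not pass in either line (adjusted p = 0.462 and 0.644, edgeR).

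CHUK, the gene of the kinase downstream of NIK (chromosome 10, 100188300 to 100229596, minus strand), did not pass in either line. Untreated SKBR3 held 32.6, 28.5 and 27.9 CPM and treated SKBR3 30.4, 23.2 and 31.4 CPM, so that the groups overlapped and the low value was that of TWEAK replicate 2. In MDA-MB-453, 53.7, 54.3 and 54.1 CPM stood beside 51.4, 54.2 and 53.6 CPM. Changes on the log2 scale were -0.08 in SKBR3 (95% confidence interval -0.32 to 0.17) and -0.03 in the other line (-0.12 to 0.06), with adjusted p of 0.770 and 0.847 from edgeR. Without TWEAK replicate 2 the SKBR3 value was 0.05.

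Among the adaptors and ligases of NIK turnover the genes split. BIRC3, which encodes cIAP2 (chromosome 11, 102317484 to 102339403), went from 2.26, 2.24 and 2.27 to 24.5, 22.7 and 25.4 CPM in SKBR3. MDA-MB-453 went from 0.743, 0.583 and 0.661 CPM, or 16 to 20 counts per library, to 7.81, 8.96 and 7.12 CPM. The treated replicates lay at about the same distance above the untreated ones in each line, 10.7-fold (SKBR3) and 11.9-fold (MDA-MB-453). These were the largest fold changes of the 10 genes with all libraries. In SKBR3, however, the log2 fold changes of BIRC3 (3.42, 95% confidence interval 3.20 to 3.63) and TRAF1 (3.30, 2.75 to 3.86) were not separate, and TRAF1 was ahead without untreated replicate 2 (3.66 against 3.41) or TWEAK replicate 3 (3.42 against 3.38). Between the lines, the log2 fold change of BIRC3 differed by 0.15 (MDA-MB-453 minus SKBR3), with a 95% confidence interval of -0.30 to 0.60 (adjusted p = 0.905, edgeR's interaction test).

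BIRC2, which encodes cIAP1, begins 7807 bases beyond the end of BIRC3 on the same strand (chromosome 11, 102347211 to 102378670). Its level was 53.2, 54.2 and 47.6 CPM in untreated and 63.0, 58.7 and 58.4 CPM in treated SKBR3, and the groups did not overlap. In MDA-MB-453, where they did, it was 55.3, 54.6 and 58.1 against 56.5, 59.1 and 57.9 CPM. The log2 fold change of 0.21 in SKBR3 did not pass (95% confidence interval 0.05 to 0.37, adjusted p = 0.119 in edgeR), but passed without TWEAK replicate 2 (0.23, adjusted p = 0.0103). It also passed when all 12 libraries were fitted together (0.22, adjusted p = 0.0233) and with a correction for GC content and length (0.24, adjusted p = 0.00881), and over all alternatives its adjusted p from edgeR or DESeq2 ran from 0.00881 to 0.302. The MDA-MB-453 value was 0.05 (-0.05 to 0.14, adjusted p = 0.730, edgeR). How reads that map to both paralogs were counted is not stated.

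Per kilobase of exon, which allows genes to be compared, BIRC3 made up 2.50, 2.43 and 2.80% of the BIRC2 and BIRC3 signal in untreated SKBR3 and 19.0, 19.0 and 20.8% with TWEAK. In MDA-MB-453 it made up 0.805, 0.641 and 0.682%, and then 7.71, 8.38 and 6.91%. BIRC2 thus stayed the more abundant transcript in every library, while the share of BIRC3 grew by 17.0 percentage points (SKBR3) and 6.96 percentage points (MDA-MB-453). The size depends on the scale, since without correction for length the share of BIRC3 grew by 24.5 and 10.9 percentage points. With 3 against 3 libraries, a two-sided exact permutation test cannot give a p under 0.1, and it gave this value in both lines.

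TRAF3, the adaptor that binds NIK (chromosome 14, 102777449 to 102911500), rose modestly. It went from 38.3, 39.1 and 39.1 to 60.7, 48.8 and 61.2 CPM in SKBR3, where TWEAK replicate 2 rose least. MDA-MB-453 went from 34.0, 36.8 and 34.8 to 47.6, 49.6 and 48.1 CPM. No groups overlapped within a line. The log2 fold changes of 0.55 ± 0.087 (SE; adjusted p = 0.00233, edgeR) and 0.46 ± 0.046 (adjusted p = 6.64e-05) differed by -0.09, with a 95% confidence interval of -0.31 to 0.13. Without TWEAK replicate 2 the SKBR3 value was 0.65.

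TRAF2, which brings the cIAP proteins to TRAF3 (chromosome 9, 136881912 to 136926607), set the lines apart. In SKBR3 it went from 46.9, 48.8 and 52.7 to 83.2, 96.7 and 87.2 CPM. MDA-MB-453 replicates held 72.3, 70.7 and 69.3 and then 77.0, 74.2 and 76.7 CPM. The treated replicates were above the untreated ones in both lines, by 1.79-fold in SKBR3 (log2 fold change 0.84 ± 0.078 SE, adjusted p = 4.46e-05, edgeR) and by 1.07-fold in MDA-MB-453 (0.10 ± 0.039, adjusted p = 0.364). The small difference in MDA-MB-453 passed without TWEAK replicate 2 (0.12, adjusted p = 0.0723, edgeR). The difference between the lines, -0.75 ± 0.086 (SE), passed edgeR's interaction test with an adjusted p of 6.05e-05 and lay between -0.79 and -0.67 over the alternatives.

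TRAF1, a family member without a RING domain that binds TRAF2 and is itself a classical NF-κB target (chromosome 9, 120902393 to 120929173, minus strand), differed most. Untreated SKBR3 libraries held 9, 15 and 8 counts on it and treated ones 113, 114 and 83, which is 0.323, 0.621 and 0.330 CPM against 4.57, 4.57 and 3.47 CPM. TRAF1 entered the SKBR3 fit only through its treated libraries, and a filter that asks for 10 counts in every library leaves it out. With no filter on low counts, its log2 fold change there was also 3.30. MDA-MB-453 started higher, at 1.0, 1.24 and 1.06 CPM, and stood at 1.04, 1.64 and 1.69 CPM with TWEAK, where replicate 1 lay among the untreated ones. The rise was thus 9.87-fold in SKBR3 (log2 fold change 3.30 ± 0.251 SE, adjusted p = 1.01e-05, edgeR), whereas the MDA-MB-453 value of 0.42 did not pass (95% confidence interval -0.05 to 0.90, adjusted p = 0.521). The difference of -2.89 ± 0.365 (SE) passed edgeR's interaction test with an adjusted p of 0.000146 and lay between -3.25 and -2.71 over the alternatives.

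As a share of the TRAF1 and TRAF2 signal per kilobase, TRAF1 was at 0.562, 1.03 and 0.510% in untreated and at 4.30, 3.73 and 3.15% in treated SKBR3. In MDA-MB-453 it was at 1.12, 1.42 and 1.24% and then at 1.09, 1.78 and 1.77%. The treated share lay above the untreated one in each SKBR3 library and overlapped it in MDA-MB-453, with two-sided exact permutation p of 0.1, the smallest possible, and 0.400. TRAF1 was therefore the minor transcript of the pair in every library.

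OTUD7B, the deubiquitinase that protects TRAF3 (chromosome 1, 149937812 to 150010726, minus strand), did not pass in either line (adjusted p = 0.657 and 1.0, edgeR). Untreated SKBR3 held 44.6, 44.9 and 42.3 CPM against 46.8, 42.8 and 49.4 CPM with TWEAK. MDA-MB-453 held 94.3, 97.4 and 98.9 CPM against 93.8, 99.8 and 97.0 CPM. The groups overlapped in both lines. Changes larger than 0.23 on the log2 scale in SKBR3 and 0.09 in MDA-MB-453 lay outside the 95% confidence intervals (-0.09 to 0.23 and -0.09 to 0.09).

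**Figure D2:**
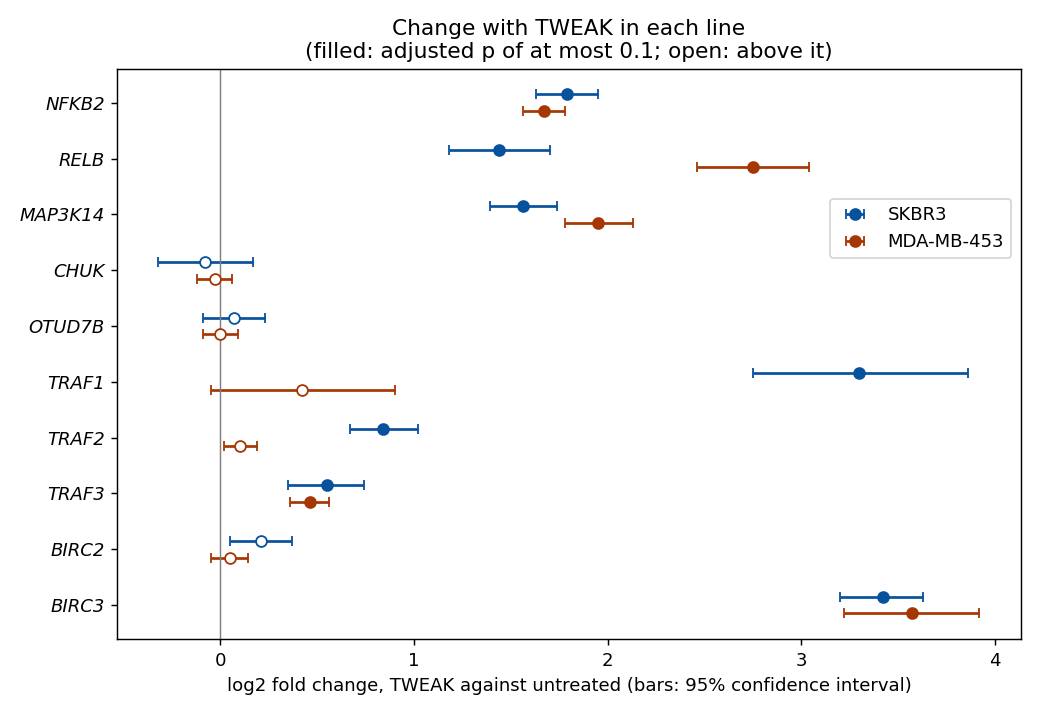
Log2 fold change of each gene with TWEAK against untreated cells in SKBR3 and in MDA-MB-453, from edgeR's quasi-likelihood fit of each line (n = 3 per group). Bars are 95% confidence intervals and filled points have an adjusted p of at most 0.1; the intervals of the lines are separate for RELB, TRAF1 and TRAF2, and by a small margin for MAP3K14.

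Across the whole set, the change with TWEAK differed between lines for 3 genes: RELB, with a larger change in MDA-MB-453, and TRAF1 and TRAF2, with larger changes in SKBR3. Of all 17201 genes tested for this difference, 1.01% were called in the first direction and 2.36% in the second (173 and 406 genes, or 505 and 645 of 17586 without SKBR3 TWEAK replicate 2). NFKB2, TRAF3, BIRC3, CHUK and OTUD7B did not pass in any alternative tried.

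Summed per kilobase over TRAF2, TRAF3, BIRC2 and BIRC3, the transcripts of the NIK-degrading complex went from 28.5 ± 0.399 (SD, n = 3) to 45.6 ± 0.790 CPM per kilobase in SKBR3, and from 34.8 ± 0.193 to 38.7 ± 0.0960 in the other line. The makeup moved too. In SKBR3, BIRC2 went from 40.1 to 29.2% of that sum, while TRAF2 went from 47.4 to 53.2% and BIRC3 from 1.06 to 7.10%. TRAF3 stood at 11.5 and then 10.5%. In MDA-MB-453, TRAF2 was at 55.6 and then 53.6%, BIRC2 at 35.7 and then 33.1%, TRAF3 at 8.53 and then 10.5% and BIRC3 at 0.255 and then 2.75%. These are sums and shares of RNA, given as a description with no test.

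**Figure D3:**
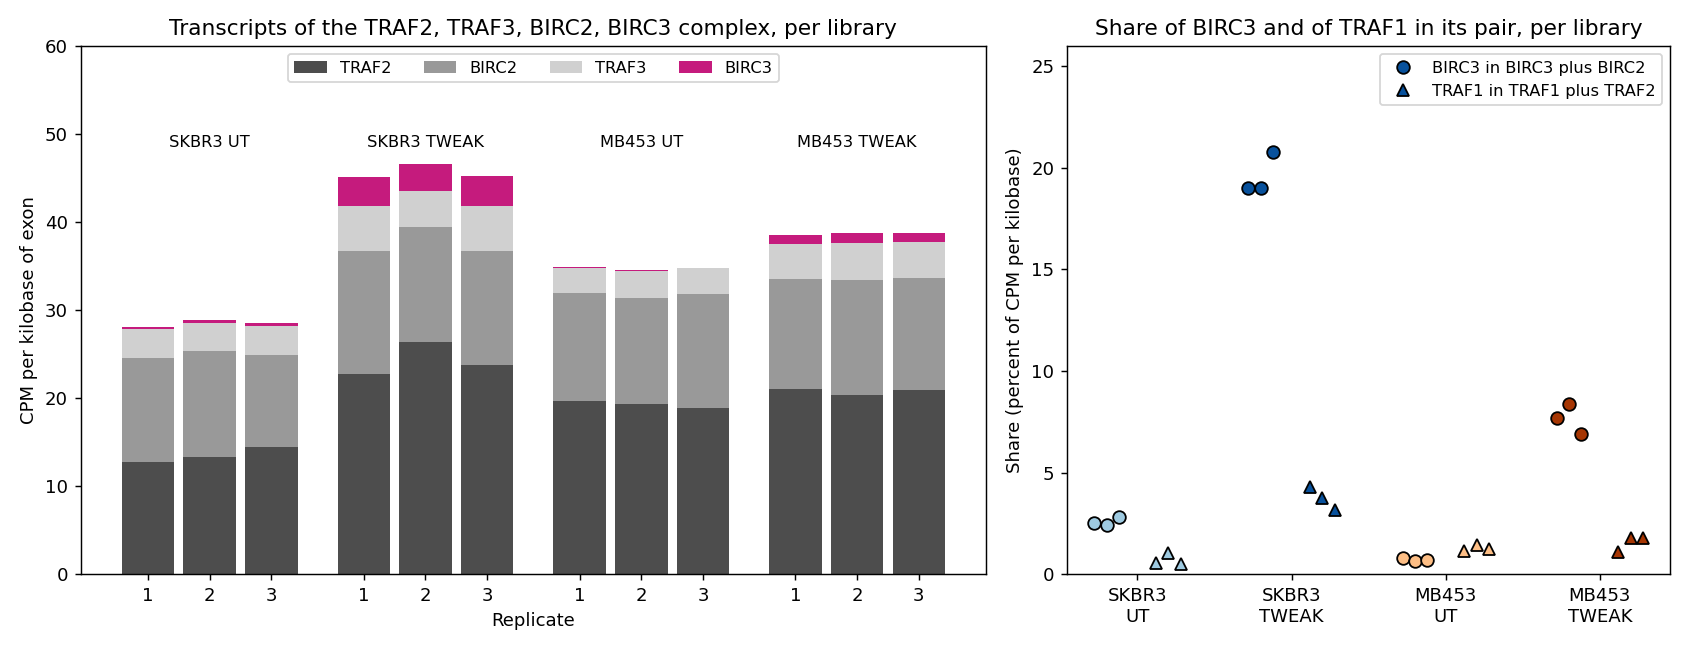
Left, CPM per kilobase of exon of TRAF2, BIRC2, TRAF3 and BIRC3, stacked for each of the 12 libraries; right, share of BIRC3 in BIRC3 plus BIRC2 (circles) and of TRAF1 in TRAF1 plus TRAF2 (triangles) per library, as percent of CPM per kilobase. The stacks of treated SKBR3 reach 45.0 to 46.5 against 28.1 to 28.9 without TWEAK, and the share of BIRC3 is higher in every treated library of its line.

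By level per kilobase, TRAF2 ranked first of the 10 genes in untreated SKBR3 (13.5 CPM per kilobase), followed by NFKB2 (12.1) and BIRC2 (11.4), whose replicates overlapped, and then by RELB at 5.69 and CHUK at 4.30. OTUD7B at 3.60, TRAF3 at 3.27, MAP3K14 at 1.80, BIRC3 at 0.301 and TRAF1 at 0.0949 came last, each apart from the next. With TWEAK, NFKB2 led at 41.9, ahead of TRAF2 at 24.3, RELB at 15.5 and BIRC2 at 13.3. RELB and BIRC2 overlapped each other there, and MAP3K14, TRAF3, CHUK and OTUD7B formed a run from 5.33 to 3.79 CPM per kilobase in which each overlapped its neighbour.

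In untreated MDA-MB-453 the order was TRAF2 at 19.3, BIRC2 at 12.4, then OTUD7B at 7.92 and CHUK at 7.83, which overlapped, and NFKB2 at 4.50. TRAF3 followed at 2.96, MAP3K14 at 1.28, RELB at 0.421, TRAF1 at 0.246 and BIRC3 at 0.0885 CPM per kilobase, all apart from their neighbours. TWEAK moved NFKB2 to the second place at 14.4, behind TRAF2 at 20.7. RELB reached 2.85 and BIRC3 1.06, which was above TRAF1 at 0.326.

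Before treatment the lines differed in all 10 genes, with 5 higher and 5 lower in MDA-MB-453. That is close to what the series shows as a whole, where 40.7% of genes were higher and 43.5% lower. Both subunits, BIRC3 and MAP3K14 were lower in MDA-MB-453, by log2 differences of -3.75 ± 0.161 (SE) for RELB, -1.76 ± 0.191 for BIRC3, -1.42 ± 0.065 for NFKB2 and -0.49 ± 0.091 for MAP3K14. TRAF1 (1.38 ± 0.316), OTUD7B (1.14 ± 0.058), CHUK (0.86 ± 0.087) and TRAF2 (0.52 ± 0.062) were higher. TRAF3 at -0.14 and BIRC2 at 0.12 only just passed (adjusted p = 0.0923 and 0.0784, edgeR), and they missed the threshold under 10 and 9 of 17 alternatives.

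NFKB2 was taken as the reference to ask which genes shared its pattern, with log2 CPM centred on the mean of each line over the 12 libraries. Pearson's r to NFKB2 was 0.995 for BIRC3, 0.985 for MAP3K14, 0.943 for RELB, 0.934 for TRAF3, 0.802 for TRAF2, 0.777 for TRAF1 and 0.688 for BIRC2. OTUD7B at 0.269 and CHUK at -0.287 were lowest. Among the other genes tested in both lines, 13489 in all with the 10 included, FLII (0.990), HLA-B (0.989), UBA7 (0.988), COL16A1 (0.987) and IRF1 (0.984) came nearest. Within a line these libraries differ by treatment, which the values reflect, so they describe a pattern and carry no p.

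The other genes of the pathway were taken from fixed lists. Of 15 receptors and ligands, 7 were tested in SKBR3 and 3 of them were higher, beside 6.60% of all genes tested there. TNFRSF12A, which encodes Fn14, rose from 66.3 ± 5.81 to 85.6 ± 8.76 CPM (SD, n = 3; log2 fold change 0.36, adjusted p = 0.0322, edgeR), TNFRSF1B, which encodes TNF receptor 2, rose from 0.679 ± 0.222 to 2.37 ± 0.304 CPM (1.81, adjusted p = 0.000687), and CD40 only just passed (0.28, adjusted p = 0.0991). The call of TNFRSF12A was lost without untreated replicate 1 or 2 (adjusted p = 0.170 and 0.144), and that of CD40 under 10 of 15 alternatives. In MDA-MB-453, where 1.29% of all genes tested were higher, 5 were tested and none was called. Of these 5, TNFRSF12A alone was under an unadjusted p of 0.05 in edgeR, and CD40 was listed at 0 in every library. TNFRSF12A stood at 52.1 ± 0.810 and 58.7 ± 2.79 CPM there (0.17, adjusted p = 0.129, edgeR), and passed under 4 of 15 alternatives. Among them were leaving out TWEAK replicate 2 (0.19, adjusted p = 0.00849) and a replicate block (0.17, adjusted p = 0.0200), both in edgeR. TNFSF12, which encodes TWEAK itself, was listed at 0 in both untreated groups.

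Of 9 canonical subunits, kinases and inhibitors, 3 were higher and 1 lower in each line. Over all genes tested, 6.60% were higher and 3.82% lower in SKBR3, against 1.29% and 0.208% in MDA-MB-453. The inhibitors NFKBIA and NFKBIE rose in both, NFKBIA with log2 fold changes of 0.70 (SKBR3) and 0.95 (MDA-MB-453) and NFKBIE with 1.28 and 0.52. NFKB1, the gene of p105/p50 and paralog of NFKB2, rose in SKBR3 (0.47, adjusted p = 0.000986, edgeR). In MDA-MB-453 it passed only under 3 of 15 alternatives, among them a replicate block (0.12, adjusted p = 0.0782, edgeR). There, NFKBIB rose (0.27, adjusted p = 0.0365, edgeR, lost under 5 of 15 alternatives), while its SKBR3 value of 0.25 missed the threshold (adjusted p = 0.188) and passed under 2 of 15 alternatives, and the difference between lines was 0.02 (95% confidence interval -0.23 to 0.27). BCL3, whose product binds p52 and p50, fell by 0.28 in SKBR3 and by 0.55 on the log2 scale in the other line, and the former call was lost without untreated replicate 1 or 3 or without TWEAK replicate 1 (adjusted p = 0.101, 0.148 and 0.132, edgeR). NFKB1 and NFKBIE changed less in MDA-MB-453 by edgeR's interaction test (-0.36, adjusted p = 0.0147, and -0.77, adjusted p = 0.000782). The differences for NFKBIA (0.25, adjusted p = 0.158) and BCL3 (-0.28, adjusted p = 0.114) missed the threshold there. They passed under 3 and 6 of 20 alternatives, which in both cases include leaving out TWEAK replicate 2 of SKBR3 (0.30, adjusted p = 0.00759, and -0.23, adjusted p = 0.0963, edgeR).

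Of the 6 subunits of the ubiquitin ligase that acts on p100, BTRC, which encodes βTrCP, was lower in SKBR3 and close to the threshold (-0.26, adjusted p = 0.0998, edgeR, lost under 11 of 15 alternatives, among them without TWEAK replicate 2, adjusted p = 0.122), and none was called in MDA-MB-453, where SKP1 (0.20, higher) and FBXW7 (-0.14, lower) were under an unadjusted p of 0.05 in edgeR. Of 12 other regulators, 11 were tested in SKBR3, of which TNFAIP3, CYLD and TANK were higher. For MDA-MB-453, 10 were tested, with TNFAIP3 and CYLD higher. As background to both lists, 6.60% of all genes tested for SKBR3 were called higher and 3.82% lower. The other line had 1.29% called higher and 0.208% lower. TNFAIP3, the gene of the deubiquitinase A20, had log2 fold changes of 1.28 and 2.44, CYLD, another deubiquitinase, 0.39 and 0.32, and the adaptor gene TANK 0.35 in SKBR3. In untreated MDA-MB-453, TNFAIP3 held only 10 to 18 counts per library, so its treated libraries may alone have carried it through the filter. Its log2 fold change in that line ran from 2.24 to 2.63 over the alternatives. The change of TNFAIP3 was larger in MDA-MB-453, by 1.15 (adjusted p = 0.0207, edgeR's interaction test), and that of TANK differed by -0.36 (adjusted p = 0.0353). The former call was lost without MDA-MB-453 untreated replicate 3 (adjusted p = 0.135) and the latter without MDA-MB-453 untreated replicate 1 (adjusted p = 0.106).

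Of 7 genes that are textbook targets of RelB:p52 in lymphoid stroma, most were too low to test, with only ICAM1 tested in SKBR3 and ICAM1 and MADCAM1 in MDA-MB-453. ICAM1, an adhesion molecule that other NF-κB dimers drive as well, rose from 3.92 ± 0.223 to 22.0 ± 2.18 CPM in SKBR3 (SD, n = 3), and MDA-MB-453 went from 6.68 ± 0.469 to 9.80 ± 0.229 CPM. Its log2 fold changes of 2.48 and 0.55 differed by -1.93 (adjusted p = 1.3e-07, edgeR's interaction test), a larger change in SKBR3, as for TRAF1 and TRAF2.

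**Figure D4:**
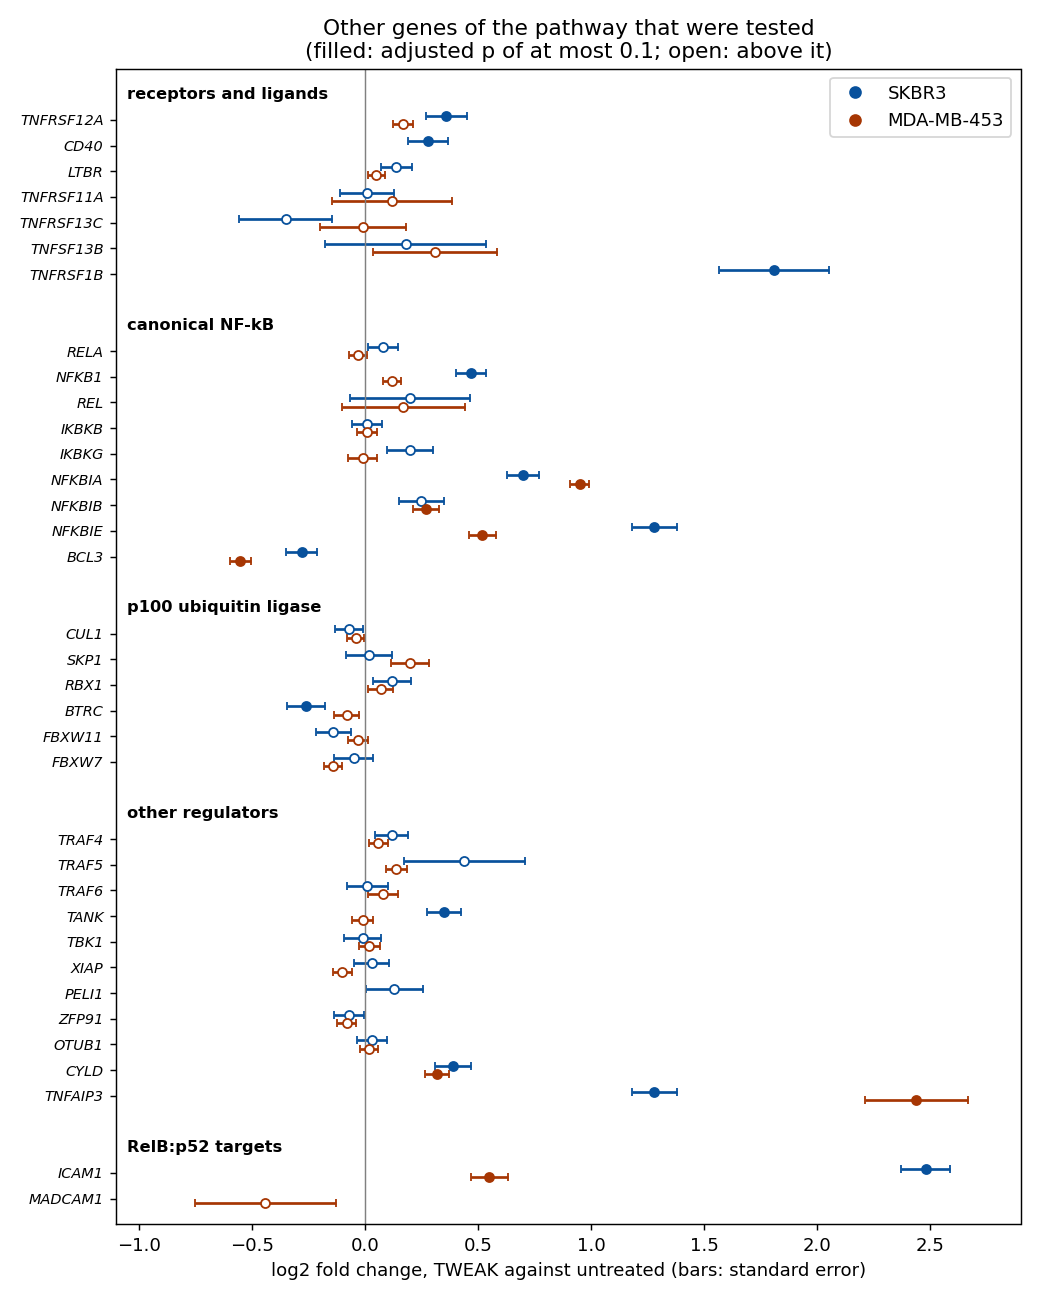
Log2 fold change with TWEAK in SKBR3 and MDA-MB-453 for the receptors, canonical NF-κB genes, p100 ligase subunits, other regulators and RelB:p52 targets that were tested, with standard errors (n = 3 per group). Filled points have an adjusted p of at most 0.1; most receptors, kinases and ligase subunits lie near 0, whereas NFKBIA, NFKBIE, CYLD, TNFAIP3 and ICAM1 are raised in both lines.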

How the data were processed

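The authors trimmed adaptors (Trimmomatic), aligned to hg38 (STAR) and assigned reads to genes (featureCounts). The deposited counts are whole numbers without normalisation, and versions, strand setting, multi-mapping and annotation release are not given in the sources used here. Of 62696 identifiers, 61918 matched GENCODE with their version and 62672 with or without it, and symbols, positions and exon lengths came from there. All genes were fitted with edgeR 4.0.16 in R 4.3.3 (filterByExpr, TMM, quasi-likelihood test, two-sided, Benjamini-Hochberg over all genes tested, threshold 0.1) on the 6 libraries of a line, and on all 12 for the difference between lines. The standard error is the log2 fold change over the square root of F. CPM use TMM factors over the 12 libraries. Alternatives were DESeq2 1.42.0, its size factors, other filters on low counts, a threshold of 0.05, a replicate block, a correction for GC content and length, and each library left out. The 10 genes and the pathway lists were chosen with earlier results of these data known. Every gene of a list that passed in either line is named, and the 5 genes nearest NFKB2. The confidence intervals rest on this standard error and so include the spread between replicates. Reads carry no molecular identifiers. All 10 genes passed the filter in both lines, TRAF1 in SKBR3 only through its treated group.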

Additional observations from a re-analysis of the deposited data

Results flagged for a closer look

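The change with TWEAK differed between the lines for 3 of the 10 genes by edgeR's interaction test. Of all 17201 genes tested for this difference (MDA-MB-453 minus SKBR3), 1.01% were called with a positive and 2.36% with a negative value. RELB changed more in MDA-MB-453, by 1.30 on the log2 scale, while TRAF1 and TRAF2 changed more in SKBR3, with differences of -2.89 and -0.75. All 3 also started from different levels in untreated cells, RELB lower and TRAF1 and TRAF2 higher in MDA-MB-453. So did the other genes of the 10, TRAF3 and BIRC2 only just. Over all genes tested, 40.7% were higher and 43.5% lower in untreated MDA-MB-453. The part of the starting level in the differences between the lines was not tested.
Of the other pathway genes, NFKB1, NFKBIE, TANK and ICAM1 also changed more in SKBR3, with differences of -0.36, -0.77, -0.36 and -1.93, and TNFAIP3 changed more in MDA-MB-453, with 1.15. The call of TANK was lost without MDA-MB-453 untreated replicate 1 (adjusted p = 0.106, edgeR's interaction test). That of TNFAIP3 was lost without MDA-MB-453 untreated replicate 3 (adjusted p = 0.135, same test).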

How the results depend on the processing

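No gene of the 10 reversed a call under any alternative. The count of genes called was 6 to 8 (SKBR3) and 5 to 6 (MDA-MB-453), and each gene called in a line with all libraries remained called whichever library was left out. For the difference between lines, 3 genes were called with all libraries, 2 to 5 over the alternatives, 3 with a replicate block and 5 with the correction for GC content and length, alone or with the replicate block, which added MAP3K14 (0.44, adjusted p = 0.0186 and 0.0292 from edgeR) and BIRC2 (-0.22, adjusted p = 0.0773 and 0.0921). Over all alternatives the adjusted p of MAP3K14 ran from 0.0186 to 0.300. Without correction for length, the share of BIRC3 grew by 24.5 percentage points (SKBR3) and 10.9 (MDA-MB-453), and that of TRAF1 by 3.66 in SKBR3. With at least 10 counts in every library, TRAF1 was left out of all fits but that of MDA-MB-453, which gave the lowest counts, 6 in SKBR3 and 2 for the difference between lines. The methods say that work with cell lines was repeated independently 3 times, on different days, but no label ties a replicate number to a day. Replicate numbers were therefore not taken to pair the samples in the main fits. Same-numbered deviations correlated at 0.115, -0.097 and -0.161 (SKBR3) and at 0.086, 0.083 and 0.025 (MDA-MB-453), under 0.1 for all but 1 pair. In MDA-MB-453, but not in SKBR3, each library correlated best with its own number. Whether the numbers mark days was not tested. The replicate block changed no call of the 10 genes, with 7 and 5 called. Of the other pathway genes, TNFRSF12A (0.17, adjusted p = 0.0200) and NFKB1 (0.12, adjusted p = 0.0782) passed with it in MDA-MB-453, and CD40 (adjusted p = 0.172) and BTRC (adjusted p = 0.197) did not in SKBR3, all from edgeR.
Over all genes, the counts moved more. A replicate block gave 490 higher and 404 lower genes for MDA-MB-453 (192 and 31 without it) and 824 and 387 for SKBR3 (1034 and 599). The GC content and length correction gave 1288 and 1628 (SKBR3) and 234 and 103 (MDA-MB-453). Leaving out TWEAK replicate 2 gave 1589 and 1191 (SKBR3) and 1003 and 1098 (MDA-MB-453), and the cause was not tested. BIRC3, RELB and TNFAIP3 in MDA-MB-453 and TRAF1 in SKBR3 rest on few untreated counts, which limits the precision of their folds.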
